A study of Mus musculus with 9 samples.

Results

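The glycinergic amacrine cells that are neither AII-like nor Ebf3-positive were examined in single-cell RNA-sequencing data from the eyes of 4 control and 5 double-knockout (dKO) mice. The members were chosen by their own UMI counts of a few genes, which are therefore described and not tested. A cell belonged to this class when it had at least 1 unique molecular identifier (UMI, which stands for 1 captured RNA molecule) for 2 or more of *Pax6*, *Tfap2a* and *Tfap2b*, and at least 1 *Slc6a9* UMI per 10000 UMIs, with *Slc6a9* above the sum of *Gad1* and *Gad2*. Cells with 2 or more *Ebf3* UMIs, or with UMIs for 3 or more of *Dab1*, *Spink13*, *Kcnh1* and *Tll1*, were left out. The rule was met by 242 of 31089 cells, 98 of them from control and 144 from dKO mice. Of all 957 cells that passed its glycinergic part, 116 were Ebf3-positive and 599 were AII-like. A further 2047 cells were GABAergic amacrine cells other than starburst cells, and 3209 cells passed either amacrine gate.

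All mice carried the RPE65-ERT2-Cre driver and the floxed miR-204 and miR-211 alleles. Injections were given on 5 days from postnatal day 28, of tamoxifen (75 mg/kg) to dKO mice and of its corn oil vehicle to controls, and the time in the labels is 6 months. The driver is active in the retinal pigment epithelium (RPE), so the amacrine cells were not the target of the deletion. No tamoxifen-treated mice without Cre are among the samples, so tamoxifen and the deletion cannot be told apart. The retinas of a mouse were processed as 1 sample.

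Amacrine cells are interneurons of the inner retina that shape the signals passed from bipolar cells to ganglion cells. Most release either glycine or GABA. Glycinergic types usually have narrow arbors that link sublayers of the inner plexiform layer, and they keep glycine high with the transporter GlyT1, the product of *Slc6a9*. The AII cell of the rod pathway is the best known of them, and the remaining types include cells that also contain the vesicular glutamate transporter VGLUT3.

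Between 15079143 and 66528160 UMIs were counted per mouse. The median member had 17493.5 UMIs and 4674.5 detected genes, whereas the median over all cells was 7709 UMIs. They contributed 5663619 UMIs in all, from 101055 in mouse S05 to 1861048 in mouse S06. Mice S04 (control), S05 and S07 (both dKO) stood apart from the others. Their median UMIs per cell were 4775, 4863 and 5412.5, and their *Xist* level over all cells lay between 35.4 and 51.8 CPM (counts of a gene scaled to a total of 1000000), against 1377 to 1570 CPM in the other 6 mice. In S04, S05 and S07, 97.2, 90.9 and 96.9% of all cells had UMIs for 3 or more of 5 rod markers. In the other 6 mice 68.2 to 79.0% did. S04 had 8 members and S05 had 6, so both fell under the minimum of 10 cells and did not enter the tests of gene expression. In those tests S07, a dKO mouse, was thus the only mouse of this kind, with no control counterpart.

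The label was checked against the defining markers of other cell types. A cell was called marked when the summed UMIs of 5 markers of rods, cones, Müller glia, bipolar cells or RPE, per 10000 UMIs, exceeded the 99th percentile of the GABAergic amacrine cells. By this measure 68 of the 242 members were marked and 174 were not. RPE markers were raised in 29 members and rod markers in 28, whereas Müller glia markers were raised in 9, cone markers in 4 and bipolar markers in 2. Other types were measured in the same way but did not enter the mark. Their markers were raised in 23 members for microglia, 9 for starburst cells and 8 for endothelial cells. Ganglion cell, horizontal cell and pericyte markers were raised in 3 members each. Of the RPE-marked members, 20 had 69.5 to 289 RPE marker UMIs per 10000, and the other 9 had 2.26 to 12.6, which in 3 of them was a single UMI. The RPE-marked members held 32.8% of all member UMIs. The rule thus also admitted cells with raised markers of other cell types, and gene expression is given for all members and for the 174 unmarked cells.

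**Figure D1:**
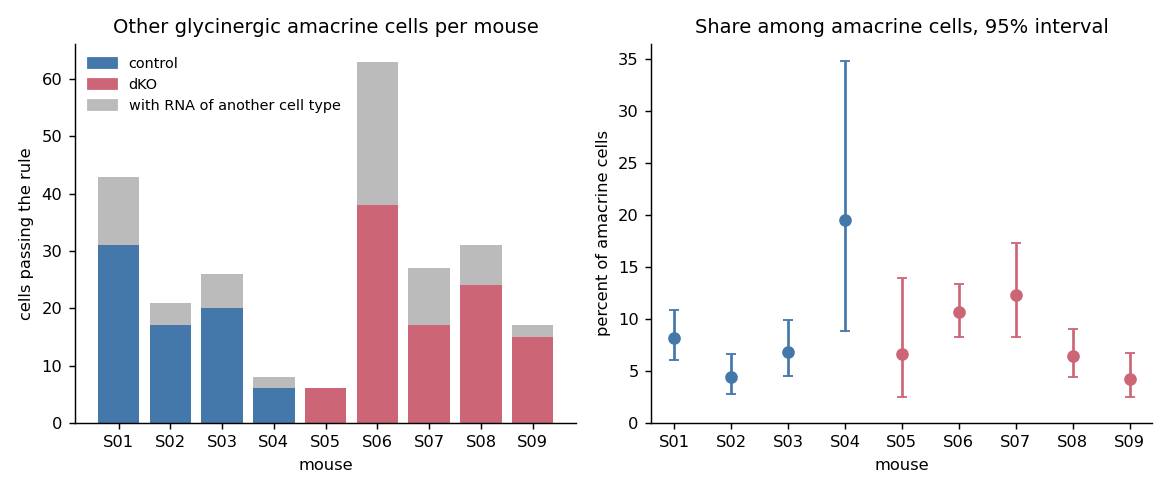
Left, number of cells that met the rule in each mouse, with the cells carrying RNA of another cell type stacked in gray on the others. Right, share of the members among amacrine cells in each mouse, with exact 95% binomial intervals; mouse S04, with 8 members, has the highest share (19.5%) and the widest interval.

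The weakest members were those most often marked. Of 31 members with a single *Slc6a9* UMI, 77.4% were marked, against 20.9% of the 211 members with more. Of 105 members with 2 of the 3 amacrine transcription factors, 58.1% were marked, against 5.11% of the 137 with all 3. Just inside the *Slc6a9* limit, at 1 to 1.5 UMIs per 10000, lay 29 cells of which 72.4% were marked, and just outside it, at 0.5 to 1, lay 64 cells of which 62.5% were marked. At the other borders, 63 cells were left out for having 3 of the 4 AII genes and 9 for having 2 *Ebf3* UMIs, while 12 members had 1 *Ebf3* UMI.

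The members were divided into 8 subclusters without the genes of the rule. Subclusters 1, 2, 6 and 8 held 141 cells, or 58.3% of the members and 47.6% of their UMIs, and only 2 of these cells were marked. Their leading genes chose the subclusters and are given as a description.

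Subcluster 1 was the largest, with 73 cells from all 9 mice. Its leading gene was *Shisa9*, which encodes an auxiliary subunit of AMPA-type glutamate receptors, at 5593 CPM against 425 CPM in the other members. *Gria1*, an AMPA receptor subunit, reached 3583 against 463 CPM. *Trpc4*, a cation channel, and *Frem2*, an extracellular matrix protein, were also among its 5 leading named genes, at 958 and 426 CPM. *Slc6a9* itself was at 660 CPM. *Gad2*, a GABA-synthesizing enzyme, was detected in 76.7% of them at 141 CPM.

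Subcluster 2 comprised 39 cells, also from all 9 mice. *Tmem132c* stood at 1219 CPM against 12.1 CPM in the other members, and *Adarb2*, an RNA-editing enzyme relative, at 2664 against 63.6 CPM. *Ptprk*, a receptor tyrosine phosphatase, and *Ephb1*, an ephrin receptor, were at 2313 and 962 CPM. *Npsr1*, the receptor of neuropeptide S, was at 1297 CPM against 59.5 CPM. *Dab1*, an adaptor of reelin signaling and a gene of the rule, reached 8658 CPM here and was detected in every cell.

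Subcluster 6 consisted of 21 cells, with at least 1 in each of the 9 mice. Each of the 21 cells had between 8 and 122 UMIs of *Slc17a8*, the VGLUT3 gene, and all 21 had UMIs for *Pax6*, *Tfap2a* and *Tfap2b*. By contrast, *Slc17a8* UMIs were seen in 2.71% of the 221 other members, 2.17% of AII-like cells, 6.90% of Ebf3-positive cells and 3.08% of GABAergic cells, and in 3.83% of cells outside both amacrine gates, which had a median of 6704 UMIs against 18402 in the subcluster. A level of 5 or more UMIs was met by 1 of these 221 members. The gene lies on chromosome 10 from 89409882 to 89457326 (GRCm39, minus strand).

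In the 5 mice with 2 or more cells of subcluster 6, *Slc17a8* ranged from 1441 CPM to 2377 CPM, with a median of 1975 CPM. Its neighbors in the list were *Nxph1*, a neurexin ligand, at 4769 CPM against 33.3 CPM in the other members, and *Sdk2*, an adhesion protein of the inner plexiform layer, at 1495 against 35.0 CPM. *Grin2a*, an NMDA receptor subunit, was at 2451 against 63.5 CPM. *Gad2* had 0 UMIs among 437373, which allows a level of up to 6.86 CPM. *Slc6a5*, the glycine transporter GlyT2, stood at 149 CPM.

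Subcluster 8 was the smallest, with 8 cells from 5 mice. All 8 cells expressed *Chrm2*, the M2 muscarinic acetylcholine receptor, at 1634 CPM against 42.9 CPM in the other members, and *Drd2*, the D2 dopamine receptor, at 407 against 6.75 CPM. *Gas7* was at 1010 against 19.3 CPM. *Glra3*, a glycine receptor subunit, was at 1510 CPM. These cells had the highest *Tcf4* level, 2943 CPM, whereas *Tfap2a* and *Tfap2b* were at 21.7 and 27.1 CPM. All 8 cells had *Pax6* UMIs, none had all 3 amacrine transcription factors, and the 8 cells together held 4 *Tfap2a* and 5 *Tfap2b* UMIs.

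The other 4 subclusters carried RNA of other cell types. Subcluster 3 (31 cells) was led by rod genes, among them *Gnat1* (transducin) at 2650 CPM and *Sag* (arrestin) at 4903 CPM. Of its cells 28 were rod-marked, 20 had a single *Slc6a9* UMI, and their median depth was 6932 UMIs. Subcluster 7 (20 cells) was led by *Rgr* and *Rpe65*, genes of the visual cycle in RPE, at 9279 and 5007 CPM. All 20 cells were RPE-marked, their median depth was 55899.5 UMIs, and they held 31.6% of all member UMIs in only 5 mice. Neither subcluster was amacrine by its leading genes.

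Subclusters 4 and 5 were mixed, with 25 cells each. In subcluster 4, *Robo3*, an axon guidance receptor, was at 486 CPM, with 0 UMIs in 3 of the 8 mice that had such cells, and 8 cells were marked by Müller glia. *Cp*, ceruloplasmin, was at 885 CPM there, but 240 of its 404 UMIs came from mouse S08, and without that mouse it was at 441 CPM. In subcluster 5, 9 cells were marked. RPE markers were raised in 5 cells, cone markers in 3, Müller glia markers in 1 and bipolar markers in 1, and a cell can carry more than 1 mark. *Trpm1*, a bipolar cell channel, was at 664 CPM there (500 CPM without S06). The adhesion genes *Cdh8* and *Tenm3* of this subcluster also rested on single mice, with 415 CPM (171 CPM without S02) and 595 CPM (316 CPM without S06).

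**Figure D2:**
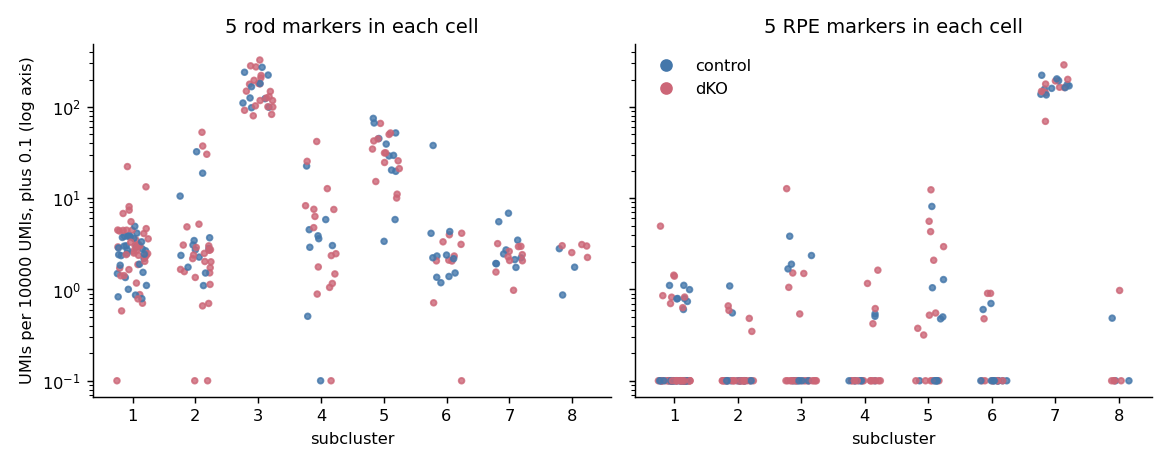
Summed UMIs of 5 rod markers (left) and 5 RPE markers (right) per 10000 UMIs in each of the 242 members, plus 0.1 on a log axis, by subcluster. Rod markers ranged from 80.0 to 327 in subcluster 3, and RPE markers from 69.5 to 289 in subcluster 7.

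**Figure D3:**
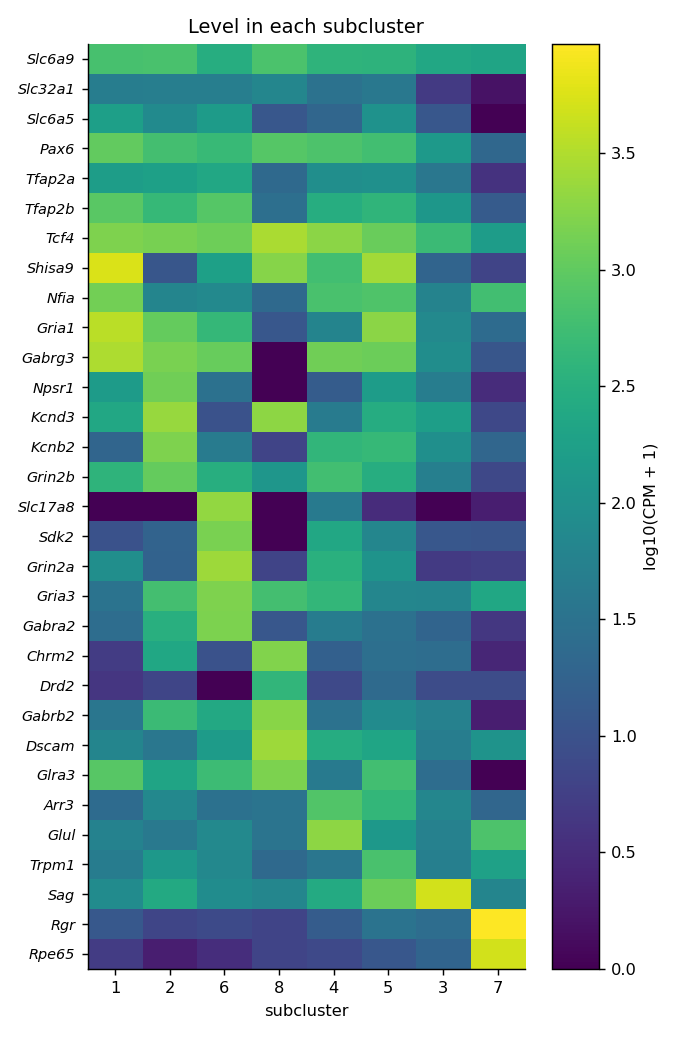
Level of the rule's genes, leading genes and markers of other cell types in each subcluster, as log10 of CPM plus 1. *Slc17a8* is highest in subcluster 6, *Rgr* and *Rpe65* in subcluster 7, and *Sag* in subcluster 3.

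The unmarked members were next set beside the other amacrine classes, each as the sum of a mouse's cells, in the mice with enough cells. The classes were cut by genes of the same cells, so these levels are a description with no test. *Trhde*, an enzyme that degrades thyrotropin-releasing hormone, had a median of 1972 CPM (1388 to 2696 CPM over 7 mice), against 138 CPM in AII-like, 71.0 CPM in Ebf3-positive and 35.6 CPM in GABAergic cells. *Gria1* was at 1955 CPM (1472 to 2346 CPM), against 130, 138 and 507 CPM. Its level was uneven within the class, at 3583 CPM in subcluster 1 and 463 CPM in the other members, marked cells included. The noncoding RNA *A930001A20Rik*, on chromosome 3 from 14977858 to 15067789 (GRCm39, plus strand), was at 379 CPM (324 to 440 CPM), against 11.2, 0.685 and 3.02 CPM. For these 3 genes the range over mice of the members did not meet that of any other class. They were chosen from those of largest fold of all members over AII-like and Ebf3-positive cells in every mouse. For *Trhde* and *A930001A20Rik* the choice also rested on GABAergic cells. Separation from the classes used in the choice is therefore no finding.

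Genes of transmitter handling placed the members between the classes. *Slc32a1*, the vesicular transporter of glycine and GABA, was at 52.0 CPM, close to 45.7 CPM in AII-like, 39.9 CPM in Ebf3-positive and 70.5 CPM in GABAergic cells. *Slc6a5* was at 122 CPM (75.4 to 164 CPM), below 260 CPM in AII-like and above 25.9 CPM in Ebf3-positive cells, while its range met that of the GABAergic cells. *Gjd2*, the gap junction protein connexin 36 of AII cells, was at 11.2 CPM against 185 CPM in AII-like cells.

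Among transcription factors, *Tcf4* was at 1581 CPM in the members, near 1503 CPM in Ebf3-positive cells and above 187 CPM in GABAergic cells. *Meis2* was at 71.5 CPM, against 1505 CPM in GABAergic cells. *Prox1*, abundant in AII-like cells at 939 CPM, was at 73.9 CPM, and *Nfia* at 655 CPM was below its 1514 CPM there. *Glra2* and *Glra3*, 2 glycine receptor subunits, were at 221 and 606 CPM, both above the other classes' medians.

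**Figure D4:**
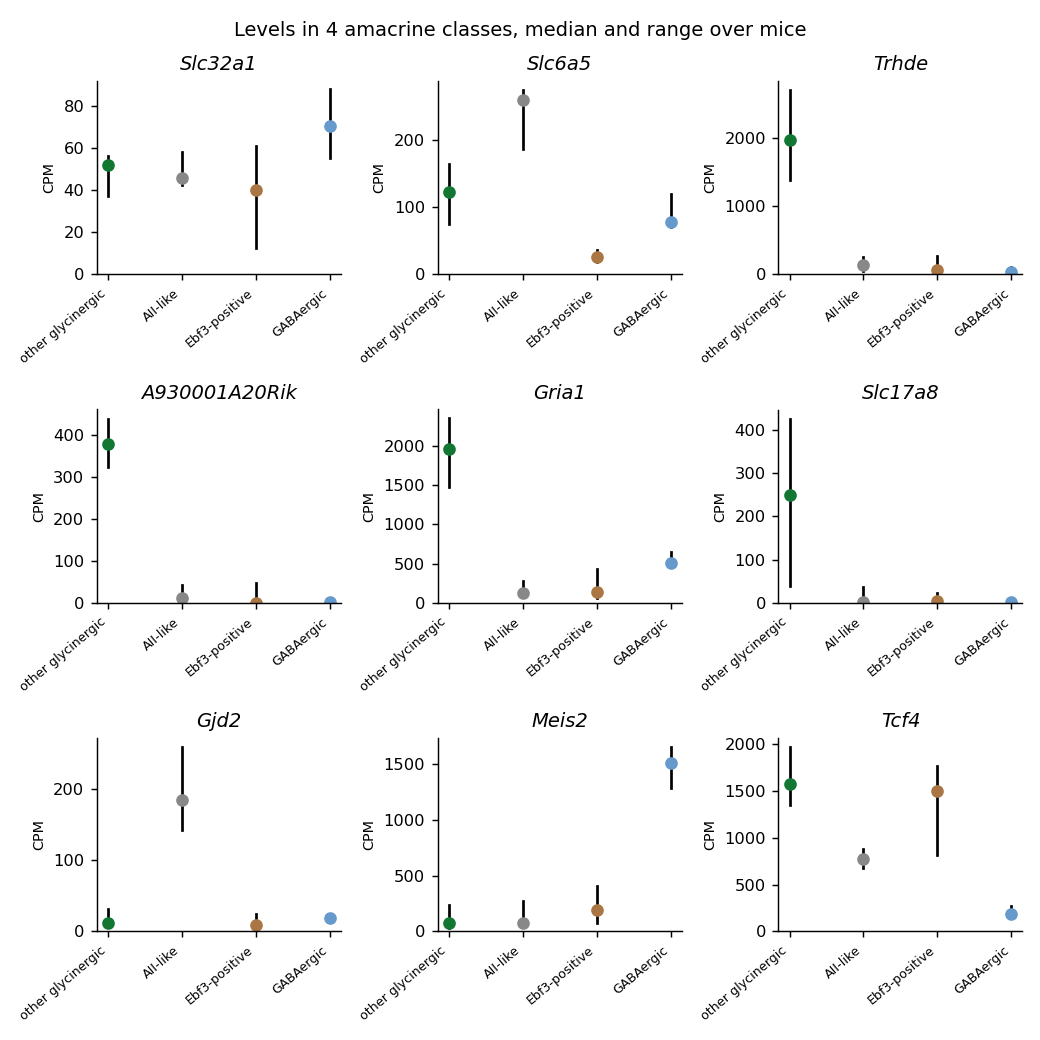
CPM of 9 genes in the unmarked members and 3 other amacrine classes; points are medians and lines the full range over mice (7 mice, or 6 for Ebf3-positive cells). *Trhde*, *A930001A20Rik* and *Gria1* are highest in the members, *Gjd2* in AII-like cells and *Meis2* in GABAergic cells.

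The abundance of the class was compared between control and dKO mice. The members made up 1.04, 0.543, 0.803 and 0.295% of all cells in the control mice (S01 to S04), whereas the 5 dKO mice (S05 to S09) had 0.370, 1.52, 0.574, 0.969 and 0.488%. These values overlapped, and the control mean of 0.671% ± 0.323 (SD, n = 4) did not differ detectably from the dKO mean of 0.785% ± 0.469 (SD, n = 5; p = 0.714 by a two-sided exact permutation test). Of the glycinergic cells they were 33.1% ± 23.1 and 27.7% ± 8.08 (exact permutation test, p = 0.746), and of all amacrine cells 9.74% ± 6.71 and 8.05% ± 3.30 (exact permutation test, p = 0.635). After adjustment over the 3 shares p was 0.746 for each by the exact test, and the smallest p that this design allows is 0.0159. The control values rested on S04, in which 8 of only 12 glycinergic cells were members, and without it the sign of each difference turned. For the subcluster shares, 3 control mice were compared with 4 dKO mice, and the lowest p was 0.286 and the adjusted p 0.971 (exact permutation). With 3 against 4 mice this test cannot give a p under 0.05, so it could not have called a shift.

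Gene expression was then compared in the members of 3 control and 4 dKO mice. Of 7963 genes tested, 0 had an adjusted p under 0.05 (edgeR quasi-likelihood, Benjamini-Hochberg; 0% called). An unadjusted p under 0.05 was reached by 128 genes, 1.61% of those tested, with 77 higher (0.967%) and 51 lower (0.64%) in dKO mice. DESeq2 and limma-voom also called 0 genes, with 141 and 174 at an unadjusted p under 0.05. In the unmarked members 6117 genes were tested, and again 0 were called, with 185 (3.02%) at an unadjusted p under 0.05, of which 101 (1.65%) were higher and 84 (1.37%) lower in dKO mice. The groups did not overlap for 287 genes (3.6%) in all members and for 292 genes (4.77%) in unmarked members.

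None of the following genes passed the threshold, and all had an adjusted p of 0.9997 by edgeR in all members. *Ndnf*, which encodes a secreted neurotrophic factor, had the lowest unadjusted p. Its level was 13.6, 14.2 and 16.6 CPM in control mice S01 to S03, and 43.5, 68.2, 48.2 and 29.9 CPM in dKO mice S06 to S09, a log2 difference of 1.73 ± 0.34 (SE). The groups did not overlap in all members, but in unmarked members the difference was 1.08 ± 0.52 and the groups overlapped. *Ptn*, the growth factor pleiotrophin, was at 5.45, 2.36 and 11.6 CPM in control and at 24.2, 32.3, 77.5 and 55.5 CPM in dKO mice. Its counts were low, with 1 to 7 UMIs per control mouse, and its difference was 2.78 ± 0.59 in all and 1.74 ± 0.69 in unmarked members.

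*Ptpn12*, a tyrosine phosphatase, was at 39.1, 37.8 and 38.1 CPM in control and at 57.3, 75.4, 70.6 and 72.6 CPM in dKO mice, a log2 difference of 0.86 ± 0.22. In unmarked members it was 0.58 ± 0.26, and the groups still did not overlap. *Chrm2* was at 71.8, 63.8 and 76.2 CPM in control and at 104, 174, 105 and 115 CPM in dKO mice, with a difference of 0.85 ± 0.26 in all and 0.79 ± 0.25 in unmarked members, where the groups overlapped. *Chrm2* was the second leading gene of subcluster 8, whose share of the members was 2.83% ± 2.49 in control and 2.92% ± 2.05 in dKO mice. In subcluster 2 *Chrm2* was detected in 82.1% of the cells, at 230 CPM. The share of subcluster 2 was 14.0% ± 7.89 in control and 21.7% ± 13.2 in dKO mice. The part of these shares in the *Chrm2* difference was not tested. Over the alternatives the *Chrm2* difference ranged from 0.20 to 1.56. The other genes with the lowest p and a higher level in dKO mice were *C130073E24Rik*, *Kcnab3*, *Tceanc2*, *Ube2ql1*, *Osbpl3* and *Fam171a2*, with log2 differences from 0.91 to 1.59.

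The genes with lower levels in dKO mice were led by *Setd7*, a lysine methyltransferase. It was at 98.2, 116 and 116 CPM in control and at 72.7, 52.1, 74.1 and 68.3 CPM in dKO mice, a log2 difference of -0.69 ± 0.20. In unmarked members the difference was -0.41 ± 0.23. *Vps39*, a subunit of a complex that tethers late endosomes and lysosomes, had a difference of -0.85 ± 0.28, and *Elk1*, a transcription factor, of -1.08 ± 0.36. *1700016P03Rik*, *4930444A19Rik*, *Clcn4*, *Tpra1*, *Ubap1*, *Gna12* and *Yars* ranged from -0.71 to -1.16.

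**Figure D5:**
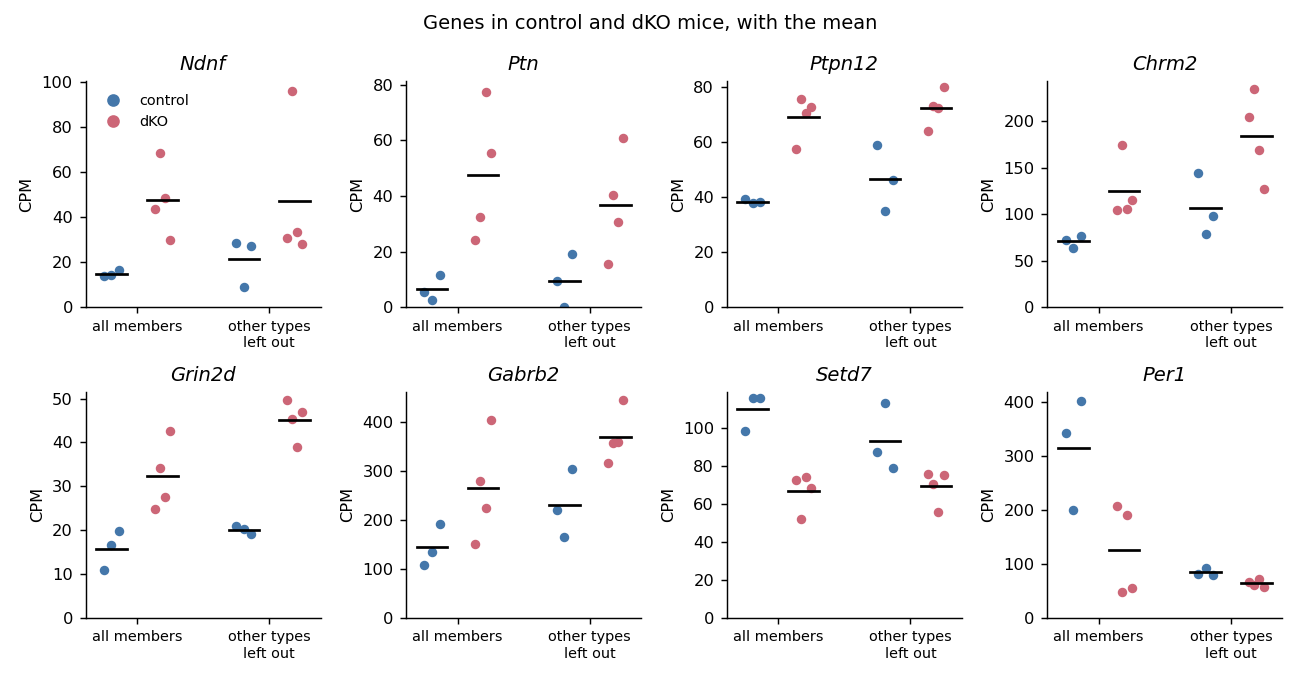
CPM of 8 genes in each mouse, for all members (left pairs) and for members without RNA of another cell type (right pairs); dots are mice and lines the means of 3 control and 4 dKO mice. *Per1* is at 201 to 402 CPM in control mice with all members and at 78.8 to 92.8 CPM without the marked cells.

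Lists of genes for the class were then counted. Over 14 lists with 299 genes, 0 listed genes had an adjusted p under 0.05 by edgeR in either set of members. In the list of glycine and GABA receptors, 20 of 24 genes were tested, and 1 was at an unadjusted p under 0.05, against 1.61% of all genes tested. It was *Gabrb2*, a GABA-A receptor subunit, with a difference of 0.90 ± 0.37. The list's median log2 difference was 0.09, beside 0.01 over all genes. In the list of glutamate receptors, 19 of 25 were tested, the median was 0.16, and *Grin2d*, an NMDA receptor subunit, was at an unadjusted p under 0.05. *Grin2d* was at 10.9, 16.5 and 19.9 CPM in control and at 24.8, 34.1, 27.6 and 42.7 CPM in dKO mice, a difference of 1.03 ± 0.35, and in unmarked members at 20.8, 20.3 and 19.0 CPM against 49.6, 45.4, 38.8 and 47.0 CPM, a difference of 1.17 ± 0.31. In neither set of members did the groups overlap, and its adjusted p was 0.9997 and 0.9996 by edgeR.

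The list of genes of glycine and GABA handling had 11 of 14 genes tested and none at an unadjusted p under 0.05, with a median of -0.10. In unmarked members 8 were tested, the median was 0.12, and 1 gene, *Slc6a5*, was at an unadjusted p under 0.05, with a difference of -0.50 ± 0.22 and no overlap of the groups. Presynaptic release genes (27 of 31 tested) had a median of 0.35 in all and 0.14 in unmarked members, with none at an unadjusted p under 0.05. Excitability channels (25 of 29) had a median of 0.10 and adhesion genes (37 of 38) of 0.12. Of the adhesion genes, *Pcdh15*, a protocadherin, had a difference of 1.14 ± 0.45, which was 0.72 ± 0.27 in unmarked members and 0.10 with no minimum of cells per mouse. Its level was highest in the rod-marked subcluster 3 (5120 CPM) and, among mice, in S07 (1999 CPM), whose members were most often rod-marked. Mouse S09, with 1 rod-marked member, was at 1839 CPM. In unmarked members S09 was the highest mouse, at 1564 CPM against 1075 CPM in S07. The part of rod RNA in the *Pcdh15* difference was not tested further. Amacrine subtype and fate genes (18 of 29) had a median of -0.14, and of -0.17 in unmarked members. The transcription factor gene *Zfhx3* had a difference of -1.25 ± 0.50, which rested on control mouse S02 (156 CPM, against 50.0 and 53.0 CPM in S01 and S03) and was -0.56 without it. Gap junction genes (2 of 6) had a median of -0.39, and none of the 14 neuropeptide and dopamine genes was tested.

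Among genes that many cell types share, immediate early genes (11 of 16 tested) had a median of -0.37, stress response genes (11 of 16) of -0.18, and oxidative phosphorylation genes (12 of 22) of -0.24. In unmarked members these medians were -0.05, 0.00 and 0.30, over 5, 5 and 8 genes. Interferon, MHC and complement genes (3 of 15) had a median of 0.08. Glucocorticoid and clock genes (18 of 21) had a median of -0.17, which was 0.00 over 17 genes in unmarked members. *Per1*, a clock gene, was at 344, 201 and 402 CPM in control and at 208, 48.5, 191 and 55.5 CPM in dKO mice, a difference of -1.28 ± 0.52. *Per1* was at 528 CPM in the RPE-marked subcluster 7 and at 25.7 to 125 CPM in the other subclusters. Its difference was -0.20 when only the RPE-marked members were left out and -0.38 ± 0.22 in unmarked members. Mice S07 and S09 had 0 RPE-marked members. The 5 RPE markers made up 0.783, 0.211 and 0.631% of member UMIs in control mice S01 to S03. In dKO mice S06 to S09 they made up 0.788, 0.00153, 0.394 and 0.00130%. The part of RPE RNA in the *Per1* difference was not tested further.

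Last, the dKO effect in the members was compared with that in GABAergic amacrine cells of the same mice. Of 7919 genes, 0 had an adjusted p under 0.05 for the difference between both classes (limma), and 229 (2.89%) had an unadjusted p under 0.05. The lowest adjusted p was 0.975 (limma).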

How the data were processed

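Single cells of the retina and RPE were profiled by split-pool barcoding (Evercode). The deposited counts are UMIs per gene and cell, not normalized, which the authors made with split-pipe on GRCm39, after which sparse cells and rare genes were dropped and 8 sublibraries merged; the submitters' notes name R 4.2.2 and Seurat 4.3.0. Counts summed to the listed total in 31089 of 31089 cells. No handling of doublets or free RNA is named, and neither was removed here. No first-round well was shared between mice, and 2808 barcode combinations occurred in more than 1 sublibrary.

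Members and lists were chosen with earlier results of these data known. Counts were summed per mouse (at least 10 cells) and tested with edgeR 4.0.16 (R 4.3.3; TMM, filterByExpr, quasi-likelihood, Benjamini-Hochberg), after a test on simulated data. DESeq2 1.42.0 and limma 3.58.1 were alternatives. limma also tested per-mouse log2 CPM differences from GABAergic cells. Shares were tested by exact permutation over mice (scipy 1.17.1). CPM in tests were TMM-scaled; elsewhere they were shares of summed UMIs. Subclusters came from Leiden clustering (leidenalg 0.10.2, resolution 0.8, 2000 variable genes, 20 components, 15 neighbors). Intervals cover counting error only. Named genes were the 10 of lowest p in each direction, listed genes at an unadjusted p under 0.05, leading subcluster genes and genes of largest fold between classes. The 20 genes of lowest p in unmarked members, and listed genes at an unadjusted p under 0.05 there, were added after their values were seen. The labels give S06 and S07 the same animal number; here they count as separate mice. Gene positions are from GENCODE M39. Some genes are not reported here.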

Additional observations from a re-analysis of the deposited data

Results flagged for a closer look

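A mouse far from the others was looked for in 61 groups of 4 or 5 mice. The groups held shares of control and of dKO mice, and subcluster shares and gene levels of dKO mice. By Dixon's criterion 4 groups were flagged, and chance flags about 1 in 20. In all members, *Chrm2* stood at 174 CPM in mouse S07, against 104 CPM at the lowest. Of the 97 *Chrm2* UMIs of S07, 78 came from 1 cell, its only cell of subcluster 8. *Hk2*, the glycolytic enzyme hexokinase 2, was at 117 CPM in S07, where the lowest mouse was at 29.3 CPM. *Ncapd3* was at 184 CPM in S09, with the lowest mouse at 87.9 CPM, and *Slc6a5* was at 107 CPM in S09, against 55.1 CPM. *Hk2*, *Ncapd3* and *Slc6a5* were examined because of their low p in the unmarked members, a choice made after their values were seen. S07 has the highest share of rod-marked members. It is also the only tested mouse with a low depth and a low *Xist* level. S09 had the fewest members of the tested mice, 17. The part of these traits in the flagged values was not tested.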

How the results depend on the processing

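The count of genes past the adjusted threshold was 0 in each of 32 alternatives, including all that left out a mouse, and the differences from GABAergic cells and the gene lists also gave 0 calls in theirs. The unadjusted counts ranged more widely, from 75 genes (*Gad1* and *Gad2* at 0 UMIs) to 569 (no filter on low counts), and were 490 with *Slc6a9* at 2 or more per 10000 UMIs and 291 without dKO mouse S06. The share differences, never past the threshold, changed sign. Among all cells the difference of 0.114 percentage points ranged from -0.0707 to 0.237 when a mouse was left out (S04 and S06 turned it) and was -0.00729 with all 3 amacrine markers required. Among glycinergic cells the difference of -5.37 points ranged from -11.7 to 5.81, and among amacrine cells that of -1.69 points ranged from -3.48 to 1.57; without S04, S05 and S07 they were 1.78 and 0.621. The causes were not tested. Of the named genes, *Tead1* (0.13) ranged from -0.17 to 0.61 when a mouse was left out and was -0.0768 with all 3 amacrine markers and -0.00512 with *Gad1* and *Gad2* at 0 UMIs. *Sgcd* (-0.88) was 0.17 without the cells of most rod RNA and 1.80 with no minimum of cells, *Nfib* (-0.89) was 0.00373 with no minimum, and *Txnrd1* (0.86) was -0.66 with *Slc6a9* at 2 or more per 10000 UMIs. Leaving out members with RNA of another cell type or with RPE RNA, and lifting the minimum of cells, were chosen after seeing the data. No paired analysis was possible because the sample numbers are not shared between control and dKO mice. With 3 control mice and as few as 17 members per mouse, small differences were not detectable at this depth.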

Other observations

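In the 174 unmarked members, genes of lowest unadjusted p were examined after their values were seen, and none passed the threshold (adjusted p of 0.9996, edgeR). *Fam135b* was at 62.5, 92.8 and 106 CPM in control mice S01 to S03 and at 168, 247, 164 and 136 CPM in dKO mice S06 to S09, a log2 difference of 1.07 ± 0.25. *Fut9*, a fucosyltransferase, and *Gucy1a2*, a subunit of the nitric oxide receptor guanylyl cyclase, had differences of 0.99 ± 0.27 and 0.95 ± 0.27, and the groups did not overlap for either. *Htr2c*, a serotonin receptor and a leading gene of the *Slc17a8* subcluster, was at 70.1, 136 and 57.1 CPM in control and at 24.8, 25.2, 5.55 and 56.3 CPM in dKO mice, a difference of -1.76 ± 0.47. The share of that subcluster among the members had a control mean of 11.2% ± 3.32 (SD, n = 3) and a dKO mean of 6.66% ± 4.01 (SD, n = 4). Its p was 0.286 by an exact permutation test, which cannot fall under 0.05 with so few mice. The part of this share in the *Htr2c* level was not tested. *Slc6a5*, which is not among those of lowest p but is a listed gene of glycine handling, was at 123, 165 and 139 CPM in control and at 119, 75.7, 86.0 and 117 CPM in dKO mice, a difference of -0.50 ± 0.22.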
